A study of Bos taurus with 6 samples.

Results

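The imprinted DLK1-DIO3 locus carries one of the largest groups of miRNA genes in mammals, and 53 of the 765 miRNAs measured in these bovine muscle cells belonged to it. They were chosen by name: every miRNA of the deposited table whose number was 1 of 44 known for this locus, with any letter or arm. Of these 44 numbers, 39 had at least 1 miRNA in the table and 5 had none. The cells were primary myoblasts, the precursors that fuse into muscle fibers, from the longissimus dorsi muscle of fetal beef cattle. In the RSV group, 3 cultures received 20 μM resveratrol (RSV, a plant polyphenol) dissolved in DMSO, and in the DMSO group, 3 cultures received the solvent alone. All 6 cultures were kept in differentiation medium for 4 days, and they came from separate experiments as the study states. Breed, genotype, sex and the number of fetuses are not given in the sources used here. Such cultures can hold other cells of the muscle besides myoblasts, and fewer cells of a type cannot be told apart from less RNA per cell.

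Genes of this locus are read from 1 parental chromosome only. The paternal copy gives the proteins DLK1, RTL1 and DIO3, and the maternal copy gives long non-coding RNAs such as MEG3 and MEG8, from which the miRNAs are cut. A first cluster of miRNA genes lies around RTL1, a gene derived from a retrotransposon, and several of its miRNAs are antisense to RTL1 and can direct the cleavage of its transcript. A large array of miRNA genes follows, from miR-379 to miR-656. In muscle the locus is known from callipyge sheep, in which a mutation between DLK1 and MEG3 changes the use of its genes and enlarges the hindquarters.

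The RefSeq gene table of the bovine assembly ARS-UCD2.0, a later assembly than the one the reads were mapped to, was used for the place of the genes relative to each other, and none of its coordinates are given. All 53 members matched a gene in it. They came from 50 hairpin genes on 1 chromosome, and 58 miRNA genes in all lay between the outermost members. By the known layout of the locus, 8 members belonged to the RTL1 cluster and 45 to the large array. Within the bounds of RTL1 lay bta-miR-431, bta-miR-433, bta-miR-127, bta-miR-432 and bta-miR-136. Within the bounds of MEG8 lay bta-miR-432, bta-miR-136 and bta-miR-370.

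The deposited table gives for each miRNA the authors' mean of normalized reads in each group, that is, reads divided by a size factor for the depth of each library. These means summed to 6637955 in the RSV group and 7340618 in the DMSO group over all miRNAs. Of 6 miRNAs known from skeletal muscle, 4 were abundant, where the RSV mean of bta-miR-206 was 127629 and its DMSO mean 139464, and those of bta-miR-1 were 28912 and 30883. bta-miR-133a had 7817 in RSV against 7453 in DMSO, and bta-miR-133b 5687 against 5550. The other 2 were low, bta-miR-499 with 114.5 in RSV against 46.09 in DMSO and bta-miR-208b with 30.52 against 32.53, so the list did not move in 1 direction. bta-miR-143 and bta-miR-145, known from smooth muscle and fibroblasts, were abundant as well, and bta-miR-143 reached 349090 in RSV against 360521 in DMSO. Whole reads of single libraries could be recovered from the means of less abundant miRNAs, and the libraries of a group are called A, B and C here in falling order of size factor. These letters are not the replicate numbers of the sample labels. Where 2 means are given as one against the other, the RSV mean stands first. A few miRNAs of other tissues stood apart in single RSV libraries. bta-miR-451, of red blood cells, had 463 normalized reads in RSV B against 53.4 to 97.4 in the other libraries, and bta-miR-122, of liver, had 200 in RSV A against 17.0 to 87.8. Other miRNAs of blood cells did not move in 1 direction by the group means. bta-miR-486 had 558.2 against 572.3 and bta-miR-150 25.83 against 31.62, and bta-miR-223 had 4.777 in DMSO and none in RSV. bta-miR-142-3p and bta-miR-142-5p were higher in RSV, with log2 ratios of the RSV to the DMSO mean of 2.02 and 0.86. The part of bta-miR-451, bta-miR-122 and bta-miR-378b in the results was not tested. Values without single libraries are given below for some of the results from recovered reads. For results from group means alone, none are given.

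By the authors' group means, the DLK1-DIO3 miRNAs were mostly higher after RSV, by small amounts. Of the 53 members, 45 (84.9%) had a higher mean in the RSV group and 8 a lower one. Over the 50 members averaging 10 normalized reads or more, 43 were higher (86.0%), against a background of 51.7% of all 391 miRNAs at that level and 46.6% of the 341 miRNAs outside the locus. The median log2 ratio of the RSV to the DMSO mean was 0.18 over these 50 members, −0.02 over the 341 others and 0.00 over all 391. When each mean was divided by the sum of its column instead, 49 of the 53 members had the higher value in RSV. At a mean of at least 10, 47 of the 50 members and 71.9% of all 391 miRNAs were then higher. The column sum in RSV was 0.904 times that in DMSO. A group mean has no error of its own, so these counts describe the table and are not a test. Members cut from shared precursor transcripts are also not independent of each other.

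**Figure D1:**
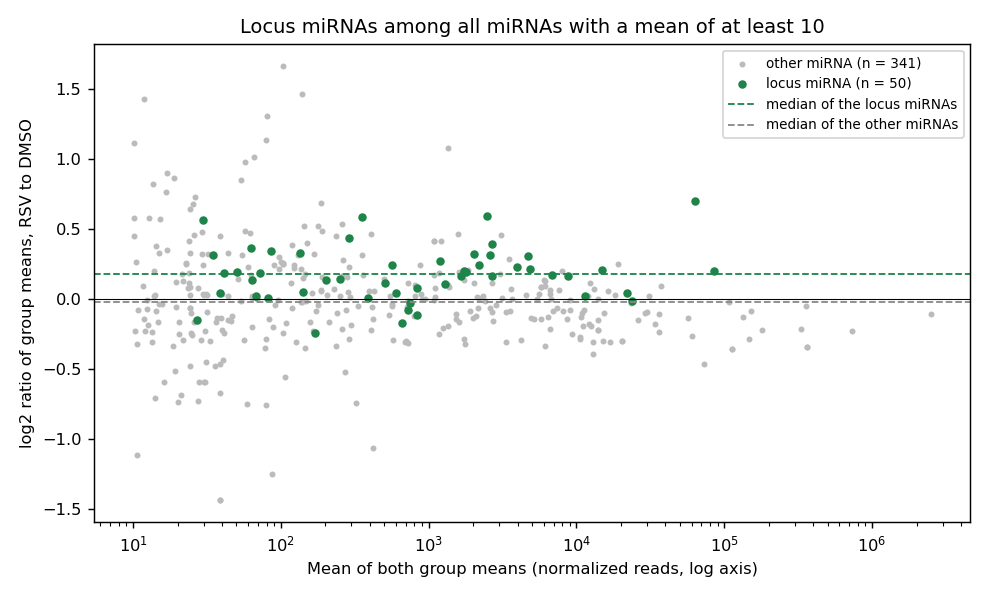
Each point is a miRNA averaging 10 normalized reads or more, placed by the mean of both group means (horizontal, log axis) and by the log2 ratio of the RSV to the DMSO group mean (vertical). Green points are the 50 locus miRNAs and grey points the 341 others. The green dashed line lies at the locus median of 0.18 and the grey one at −0.02, and the locus point highest above 0 is bta-miR-381 at 0.70.

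The difference in direction was seen among abundant miRNAs as well. At a mean of at least 1000 normalized reads, 21 of 22 members were higher in the RSV group, with a median log2 ratio of 0.21 and a range from −0.01 to 0.70. Of the 124 other miRNAs at that level, 46 were higher (37.1%), with a median of −0.08. The single abundant member on the other side was bta-miR-379, the miRNA at the head of the large array, with 23753 normalized reads against 23944. Its log2 ratio was −0.01, and with scaling by the column sums it was 0.13.

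Summed over the locus, the normalized reads were 306201 in the RSV group and 252690 in the DMSO group, 1.21 times as many. This was 4.61% of all miRNA reads in RSV and 3.44% in DMSO. A few members made up most of it, since the 5 most abundant, bta-miR-127, bta-miR-381, bta-miR-379, bta-miR-411a and bta-miR-154c, held 75.4% of the locus reads in RSV and 73.8% in DMSO. bta-miR-381 alone accounted for 56.3% of the difference between the sums. Without it the sums were 227939 and 204533, 1.11 times as many in RSV. For these 5 miRNAs only the group means were used.

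bta-miR-381 had the largest log2 ratio of all members with a mean of at least 10, 0.70. The RSV mean was 78262 normalized reads and the DMSO mean 48157, 1.63 times as many, and its share of the locus reads was 25.6% against 19.1%. The members beside it in the order of genes differed less. bta-miR-1185, the nearest member before it, had a log2 ratio of 0.20, bta-miR-487b after it 0.27 and bta-miR-539 0.14. The gene directly before bta-miR-381 is that of bta-miR-3956, which is not a member and had a log2 ratio of 0.45. bta-miR-127, a miRNA antisense to RTL1 and the most abundant member, had 90348 normalized reads against 78748, a log2 ratio of 0.20. bta-miR-154c, which the study lists among its top up-regulated miRNAs with predicted targets, had means of 16060 and 13868, a log2 ratio of 0.21. bta-miR-411a, the neighbor of bta-miR-379, had 22334 and 21658, a log2 ratio of 0.04. For these abundant miRNAs no spread between libraries was recovered. The study lists values of each sample for the miRNAs it called different, and these were not used here. As a guide to precision, the standard error (SE) of the log2 fold change (log2FC) had a median of 0.12, with a range from 0.09 to 0.74, over the 66 tested miRNAs whose mean reached 100 normalized reads. None of these had a group mean above 1000, so they are less abundant than the miRNAs without a recovered spread. The guide gives no error for those.

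In the RTL1 cluster, 7 of 8 members had the higher mean in RSV, with a median log2 ratio of 0.17. bta-miR-432 is also listed among the study's top up-regulated miRNAs, with predicted targets. It had a mean of 2993 normalized reads after RSV against 1982 in the DMSO group, a log2 ratio of 0.59. bta-miR-431 had means of 423.0 and 281.1 and the same log2 ratio of 0.59. bta-miR-431 is the cattle form of a miRNA known in mouse muscle to target Pax7, a regulator of muscle stem cells. The other miRNAs within RTL1 differed less, with log2 ratios of 0.20 for bta-miR-127, 0.12 for bta-miR-136 and 0.11 for bta-miR-433. bta-miR-493 at the start of the cluster had 7221 against 6412 (0.17) and bta-miR-370 at its end 2823 against 2520 (0.16). bta-miR-665, between bta-miR-493 and bta-miR-431 in the order of genes, had the lowest log2 ratio of the members with a mean of at least 10, −0.24, with means of 156.6 and 185.5. Ratios within the cluster thus ran from −0.24 to 0.59.

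**Figure D2:**
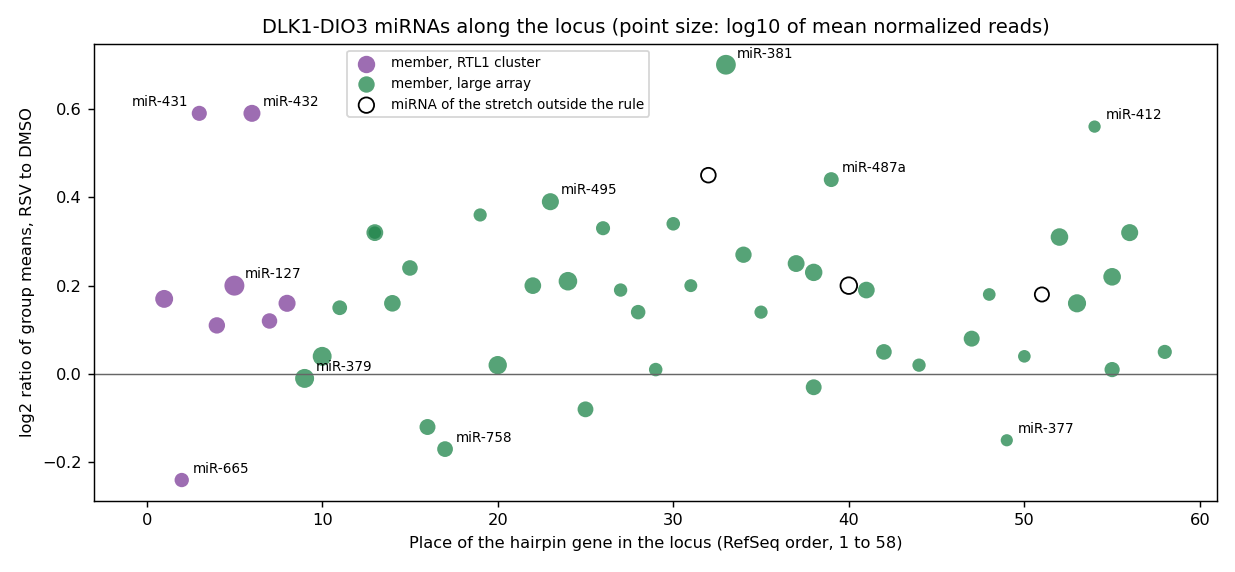
Log2 ratio of the RSV to the DMSO group mean (vertical) for the 50 members with a mean of at least 10 and for 3 miRNAs of the same stretch that the choice by number left out (open circles), by the place of their gene among the 58 miRNA genes of the locus (horizontal), with the RTL1 cluster in purple and the large array in green. Point size grows with the log10 of the mean normalized reads. High values, such as 0.59 for miR-431 and miR-432 and 0.70 for miR-381, lie beside members between −0.24 and 0.27. The open circle just before miR-381 is miR-3956 at 0.45.

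In the large array, 44 of 45 members had reads in both groups, and 37 of these 44 had the higher mean in RSV, with a median log2 ratio of 0.18. Next to bta-miR-381, the largest ratios among members with a mean of at least 10 were those of bta-miR-412 (0.56), bta-miR-487a (0.44) and bta-miR-495 (0.39). bta-miR-495 had 3026 normalized reads against 2305. bta-miR-410 near the end of the array had 2889 against 2321 (0.32), and bta-miR-655 in its middle 2386 against 2011 (0.25). bta-miR-543, bta-miR-382 and bta-miR-411b had log2 ratios of 0.20, 0.19 and 0.16. bta-miR-494 differed least among the higher abundant members, with 11474 against 11302 (0.02).

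The members with the lower mean in RSV were bta-miR-665 of the RTL1 cluster and 7 of the large array. bta-miR-323 and bta-miR-758, whose genes are neighbors, were among them, bta-miR-323 with 794.9 normalized reads against 861.7 (−0.12) and bta-miR-758 with 625.6 against 703.2 (−0.17). bta-miR-376e, bta-miR-377 and bta-miR-411c-3p had log2 ratios of −0.08, −0.15 and −0.03. With scaling by the column sums, bta-miR-323, bta-miR-376e, bta-miR-411c-3p and bta-miR-379 were on the higher side. The seventh was bta-miR-154a, which had few reads, 4, 6 and 2 in RSV A, B and C and 5, 7 and 1 in DMSO A, B and C.

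For 3 hairpins the table lists both arms. The 3p and 5p arms of bta-miR-380 kept their proportion, with 58.8 times as many 3p as 5p reads in RSV and 58.7 times in DMSO, and both had a log2 ratio of 0.32. For bta-miR-369 the 3p arm was 13.5 times the 5p arm in RSV and 11.7 times in DMSO, with log2 ratios of 0.22 for 3p and 0.01 for 5p. For bta-miR-411c the 3p arm was 0.175 times the 5p arm in RSV and 0.209 times in DMSO, with log2 ratios of −0.03 for 3p and 0.23 for 5p. In 2 of the 3 hairpins the more abundant arm thus had the larger ratio. bta-miR-409a and bta-miR-409b are listed by RefSeq at the same start, and their ratios were 0.31 and 0.16. The spread of these proportions between libraries was not worked out, since reads of the abundant arms could not be recovered from the means.

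Reads of all 6 libraries followed without ambiguity from the group means for 583 miRNAs, 21 of them members. Of these, 209 miRNAs averaging 10 normalized reads or more, 18 of them members, were compared between the groups with limma voom, which fits log2 reads with a weight for their precision. At an adjusted p under 0.05 (Benjamini-Hochberg over the 209 miRNAs), 1 of the 18 members was called higher in RSV and none lower. The background in the same fit was 9.57% called in either direction, 5.26% higher and 4.31% lower, so the share of called members (5.56%) was near it. At an unadjusted p under 0.05 there were 5 members of 18 and 58 miRNAs of 209. The log2FC was above 0 for 16 of the 18 members and for 113 of the 209 miRNAs, and for 15 or 14 of the members with the other library sizes tried. The median log2FC was 0.15 over the members and 0.03 over all 209. The standard errors of the members ran from 0.10 to 0.32, with a median of 0.14, close to the median log2FC.

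The called member was bta-miR-487a, a miRNA of the middle of the large array. It had 326, 356 and 322 normalized reads in RSV A, B and C and 239, 281 and 222 in DMSO A, B and C. All RSV libraries lay above all DMSO libraries. The means were 334.5 ± 18.3 (SD, n = 3) and 247.1 ± 30.1 (SD, n = 3), and the log2FC was 0.44 (SE 0.11, limma voom adjusted p = 0.042). The call did not hold without any single one of RSV A, RSV B, RSV C, DMSO A or DMSO C, where the adjusted p from limma voom lay between 0.054 and 0.15, and it held without DMSO B (0.049). With library sizes set by the total of the recovered reads or by medians of ratios, it was 0.051 and 0.059, and over all alternatives it ran from 0.031 to 0.15.

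The other members with a large log2FC did not pass the test. Among them was bta-miR-412, whose log2FC was the largest of the 18 tested members. bta-miR-412, at the 3′ part of the array, had 38.3, 33.2 and 35.3 normalized reads in RSV and 18.4, 29.1 and 24.7 in DMSO, without overlap. Its log2FC was 0.60 (SE 0.21, limma voom adjusted p = 0.11), and without DMSO A, its lowest library, it was 0.38 (limma voom adjusted p = 0.31). bta-miR-329a had 80.4, 70.3 and 60.9 in RSV and 49.9, 57.1 and 57.6 in DMSO, with a log2FC of 0.38 (SE 0.15, limma voom adjusted p = 0.15). The groups did not overlap, but the lowest RSV library lay only just above the highest DMSO library. bta-miR-380-5p had 38.9, 37.1 and 39.6 in RSV and 21.7, 34.0 and 37.0 in DMSO, with a log2FC of 0.37 (SE 0.21, limma voom adjusted p = 0.29). Here DMSO A was far below the other 5 libraries, and without it the log2FC was 0.11 (limma voom adjusted p = 0.77).

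The miR-376 family, which is known for A-to-I editing of its seed in other mammals, has 5 members close together in the array. bta-miR-376a had 102, 99.7 and 87.7 normalized reads in RSV and 67.2, 81.4 and 79.6 in DMSO, a log2FC of 0.36 (SE 0.13, limma voom adjusted p = 0.12). bta-miR-376c had 140, 151 and 158 in RSV and 120, 126 and 110 in DMSO, a log2FC of 0.32 (SE 0.11, limma voom adjusted p = 0.11). In both the groups did not overlap. bta-miR-376d had 72.7, 71.9 and 86.6 in RSV and 66.2, 64.4 and 72.7 in DMSO, and bta-miR-376b had 75.9, 83.5 and 86.6 in RSV and 78.1, 94.7 and 71.3 in DMSO. Their groups overlapped, and the log2FC values were 0.16 and 0.00 with 95% intervals from −0.14 to 0.46 and from −0.31 to 0.31. None of the 4 members of the family in this fit passed the test. bta-miR-376e, the most abundant of the family, was not in this fit. It had means of 702.0 in RSV and 740.6 in DMSO, a log2 ratio of −0.08.

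bta-miR-665 of the RTL1 cluster was the 1 tested member with all RSV libraries below all DMSO libraries. It had 151, 155 and 165 normalized reads in RSV and 169, 208 and 180 in DMSO, a log2FC of −0.24 (SE 0.11, limma voom adjusted p = 0.19). bta-miR-377, the other tested member with a log2FC below 0, had 29.2, 24.0 and 23.5 in RSV and 23.9, 37.6 and 23.3 in DMSO, and its groups overlapped. In all, the 3 RSV libraries were all higher than the 3 DMSO libraries for 6 of the 18 members and all lower for 1. The background was 21.1% of the 209 miRNAs above and 12.0% below.

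The remaining tested members had overlapping groups. They were bta-miR-299, bta-miR-539, bta-miR-654, bta-miR-656, bta-miR-485, bta-miR-496, bta-miR-541 and bta-miR-1185, with log2FC values between 0.04 and 0.19. bta-miR-541 varied most, with 32.4, 44.8 and 40.6 normalized reads in RSV and 49.9, 19.4 and 45.3 in DMSO, and a standard error of 0.32. bta-miR-656, the last miRNA of the array, had 155, 134 and 139 in RSV and 139, 125 and 150 in DMSO, with a 95% interval of the log2FC from −0.20 to 0.31. Below the minimum mean of 10 were bta-miR-154a and a further pair. bta-miR-329b had 1, 1 and 1 reads in RSV and 1, 0 and 0 in DMSO, and bta-miR-544a had 3, 3 and 1 in RSV and 0 in each DMSO library, too few for a comparison.

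**Figure D3:**
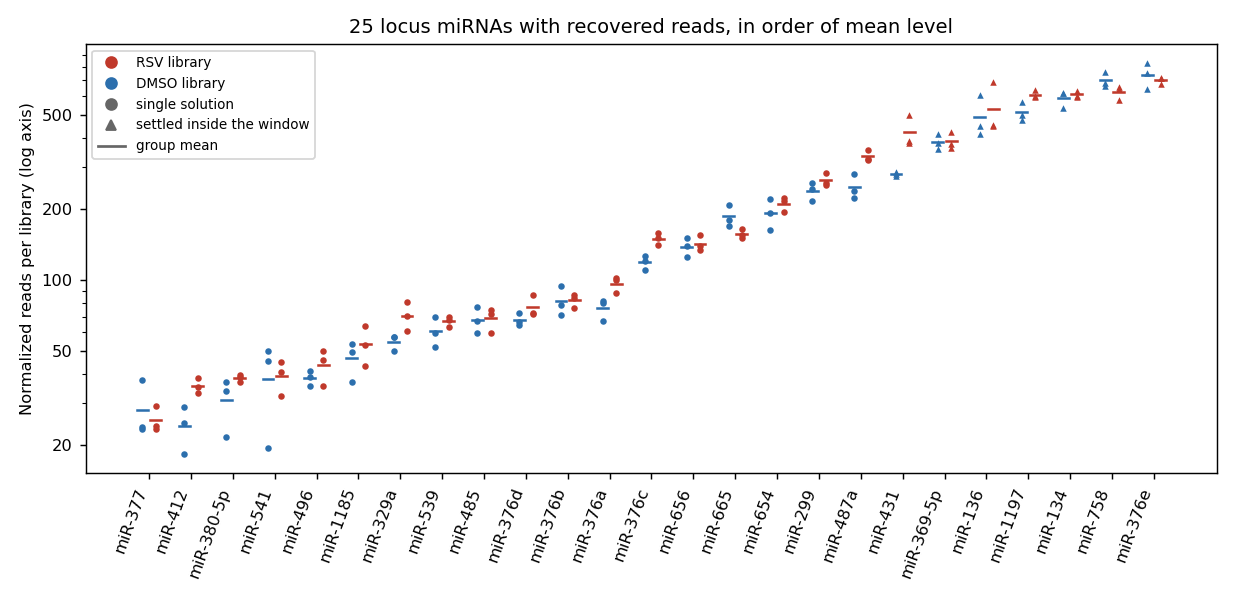
Normalized reads in each library (vertical, log axis) of the 25 members with recovered reads and a mean of at least 10, ordered by mean level, with RSV libraries in red, DMSO libraries in blue and a bar at each group mean. Circles mark the 18 members with a single solution and triangles the 7 settled inside the window. For miR-487a and miR-431 the red points lie clear of the blue ones, and for most others the groups are close or overlap.

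For 7 more members the DMSO reads followed from the mean alone and the RSV mean allowed between 2 and 4 combinations of reads. For each, 1 combination had all 3 normalized values within 0.5 to 2 times the group mean, and it was kept. bta-miR-431, for example, had 380, 501 and 388 normalized reads in the kept combination, and the other combination was 9.73, 1149 and 110. Of 101 RSV means of at least 50 normalized reads with a single solution, 3 had a library outside that window, so this choice could fail for a few miRNAs. A fit with these miRNAs added was made after the data had been seen. It held 233 miRNAs, 25 of them members, and called 2 members higher and none lower at an adjusted p under 0.05, against a background of 9.44% of all 233 miRNAs in either direction and 5.58% higher. All RSV libraries were above all DMSO libraries for 8 of the 25 members and below them for 2, where the background was 20.2% above and 13.3% below.

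In that fit bta-miR-431 was called besides bta-miR-487a. Its DMSO libraries were close together, at 281, 287 and 276 normalized reads, and all RSV libraries lay above them, RSV B farthest. The log2FC was 0.58 (SE 0.12, limma voom adjusted p = 0.019). Without RSV B, the highest library, the log2FC was 0.45 (limma voom adjusted p = 0.019). Without DMSO A, B or C in turn the adjusted p from limma voom was 0.11, 0.08 and 0.097, so the call needed all 3 DMSO libraries.

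bta-miR-136, a neighbor of bta-miR-432, showed a different spread, with 453, 690 and 448 normalized reads in RSV and 448, 607 and 413 in DMSO. Its groups overlapped almost fully, and the log2FC was 0.11 (SE 0.19). bta-miR-1197 had 636, 593 and 599 in RSV and 474, 500 and 569 in DMSO, without overlap, a log2FC of 0.25 (SE 0.10, limma voom adjusted p = 0.14). bta-miR-758 had 657, 578 and 641 in RSV and 665, 760 and 685 in DMSO, a log2FC of −0.17 (SE 0.09, limma voom adjusted p = 0.29), and the RSV libraries lay just below. bta-miR-134, which is known for its role in the dendrites of neurons, bta-miR-369-5p and bta-miR-376e had overlapping groups and log2FC values of 0.05, 0.00 and −0.07.

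Over the 18 tested members, the median log2 deviation from the mean of 6 libraries was 0.13, 0.06 and 0.09 in RSV A, B and C and −0.13, −0.07 and −0.05 in DMSO A, B and C. Over all 209 tested miRNAs it lay between −0.03 and 0.05 in every library. The members' medians in the RSV libraries thus lay above those in the DMSO libraries, and in RSV B the median of the members was close to that of all miRNAs (0.05). The members' median log2FC was 0.15, 0.20 and 0.13 without RSV A, B and C, the libraries with high bta-miR-122 in A and high bta-miR-451 in B. Without DMSO A, B and C it was 0.18, 0.13 and 0.23. Of the recovered reads, the 21 members with a single solution made up 10.8% in RSV A, 10.1% in RSV B and just less than that in RSV C. They made up 9.33%, 9.41% and 9.43% in DMSO A, B and C, so each RSV library had the larger share. This covers the less abundant miRNAs only.

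**Figure D4:**
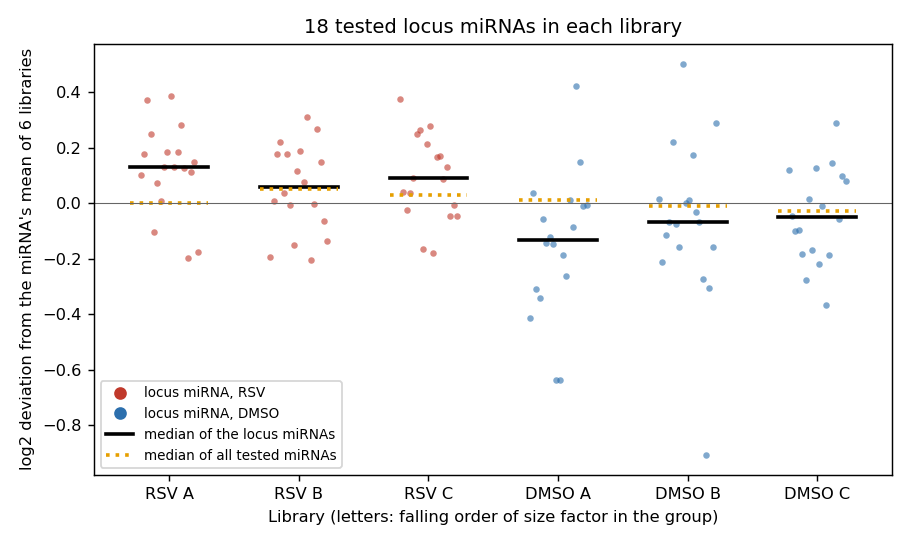
Log2 deviation of each of the 18 tested locus miRNAs from its mean over 6 libraries (vertical) in each library (horizontal), with RSV in red and DMSO in blue. The black bar is the median of the locus miRNAs and the orange dotted bar that of all 209 tested miRNAs. The black bars are at 0.06 to 0.13 for RSV and at −0.13 to −0.05 for DMSO.

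Of the 58 miRNA genes between the outermost members, 8 were not among the members, and 3 of these had a row in the table. They were chosen by position and not by their values, though they are part of the same stretch. bta-miR-3956, the gene just before bta-miR-381, had 271, 278 and 269 normalized reads in RSV and 197, 206 and 193 in DMSO. The groups were far apart for their spread, with a log2FC of 0.45 (SE 0.09, limma voom adjusted p = 0.018). Without DMSO A, B or C in turn the adjusted p from limma voom was 0.071, 0.057 and 0.084. bta-miR-3957, between bta-miR-541 and bta-miR-409a, had 163, 147 and 154 in RSV and 130, 140 and 139 in DMSO, a log2FC of 0.18 (SE 0.10, limma voom adjusted p = 0.28). bta-miR-3578, whose gene lies between those of bta-miR-487a and bta-miR-382, had 1725 normalized reads against 1504, a log2 ratio of 0.20. The log2 ratios of these neighbors were 0.44 for bta-miR-487a and 0.19 for bta-miR-382. bta-miR-1247-5p, from the far end of the locus beside DIO3, had a single read in 1 RSV library and none in DMSO.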

How the data were processed

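Small RNA of 3 RSV and 3 DMSO cultures was measured, grouped by the treatment in the labels. Per the study's methods and the submitters' processing notes, the authors mapped reads with Bowtie 0.12.9 to bosTau8 and named miRNAs by miRBase. The authors deposited mean normalized reads per group. The columns of the authors' own comparison (fold changes, p-values and calls) and the mRNA part, whose decimal points are mostly lost, were not used.

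A deposited mean is a sum of whole reads over size factors, given to 10 significant digits. Size factors came from the smallest means (1.54, 1.29 and 0.935 in RSV; 0.922, 0.823 and 0.729 in DMSO), and all whole-number combinations were searched up to a mean of 1000. Every RSV size factor was above every DMSO one, so depth and treatment cannot be told apart. A mean above 1000 in at least 1 group (146 miRNAs) was left undecoded, and 12 miRNAs kept several solutions. Sums of recovered reads ran from 13419 to 28392 per library and are not full depth. The full depth of a library was not known. Recovered libraries carry no replicate number.

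limma 3.58.1 voom (R 4.3.3) compared the groups, with size factors setting library sizes, a minimum mean of 10 and Benjamini-Hochberg adjustment. Other steps used Python 3.11.15, numpy 2.4.6, pandas 2.3.3, numba 0.67.0 and matplotlib 3.10.9. On simulated data, 1044 of 1044 single solutions and 26 of 26 solutions inside the window were right. The simulated libraries of a group shared 1 mean with a small spread. The choice inside the window could thus hardly fail there, while 3 of the 101 real RSV miRNAs checked had a library outside it. For the main comparison the fit found 31 of 40 miRNAs changed by a log2 fold change of 1 among 209, with 1 false call. The largest log2FC of a tested member was 0.60, so this rate does not apply to changes of the size seen in the locus. Members and lists were chosen with earlier results of these data known. Named by rule were members that passed, the 5 most abundant, the 5 with the largest log2FC that did not pass, and bta-miR-432 and bta-miR-154c. Other members were named after their values were seen, and miRNAs outside the rule by position. The p-values set the group difference against the spread between the libraries of a group, which limma estimates with help from all tested miRNAs. An exact two-sided permutation of 3 against 3 has 0.10 as its smallest p. Alternatives tried were other library sizes, models, pseudocounts and minimum means, and each library left out.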

Additional observations from a re-analysis of the deposited data

How the results depend on the processing

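The number of members called was 1, and it was 0 with library sizes from the total of the recovered reads and 0 from medians of ratios, 2 with reads settled inside the window added (chosen after seeing the data), and from 0 to 1 with any single library removed. It stayed at 1 with limma with a trend at either pseudocount and with minimum means of 1 and 50. For all miRNAs the count was 20, between 17 and 22 under the alternatives that kept every library, and from 4 to 23 with any single library removed, lowest without DMSO C (4), DMSO A (5) and DMSO B (7), then RSV A (13). The cause of these losses was not tested beyond the smaller number of samples. The median log2FC of the members, 0.15, was 0.11 with medians of ratios and from 0.13 to 0.23 with any single library removed. It kept its sign under every alternative run. The locus share of miRNA reads was 1.34 times as large in RSV by the group means and 1.10 times by the recovered reads, which leave out the abundant members by construction. The log2 ratio of bta-miR-379 turned from −0.01 to 0.13 with scaling by the column sums. No paired analysis was possible because the recovered libraries carry no replicate number. Depth limits the members below a mean of 10, and the 25 members described here by group means alone are given without an error.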
